A study of Homo sapiens with 2 samples.

Results

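The Polo-like kinases PLK1, PLK2, PLK3 and PLK4 were examined after knockdown of SUB1, a coactivator of transcription, in the prostate cancer cell line PC3. Every probe for a gene whose name in the scanner files is PLK1, PLK2, PLK3 or PLK4, or an older name of one of them, was taken. This gave 6 of the 41000 gene probes, which were 2 probes for PLK1, 1 for PLK2, 1 for PLK3 and 2 for PLK4. Of the 6 probes, 5 were well above background by the test of the scanner software and 1 probe of PLK4 was not. PLK1 was the member with a large difference. One of its probes was 2.66-fold lower with SUB1 siRNA 1 and 3.30-fold lower with SUB1 siRNA 2, whereas its other probe was less than 2-fold lower with each. PLK4 was less than 2-fold lower with both siRNAs at its 1 probe well above background, although 1 other processing put it past 2-fold with siRNA 2. The log2 ratio of PLK2 lay near 0 with siRNA 1 and was -0.34 with siRNA 2, and those of PLK3 lay near 0.

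Cells were transfected with Non-T siRNA, which targets no transcript by design, or with 1 of 2 SUB1 siRNA duplexes, were transfected again 24 h later and were harvested 72 h after the first transfection, all in medium with 10% FBS. On each of 2 dual-colour Agilent arrays, RNA of Non-T siRNA-treated cells carried Cy3 and RNA of SUB1 siRNA-treated cells carried Cy5. Each duplex had 1 array, without replicate cultures, and the dyes were not swapped, so the knockdown and any dye bias of a probe cannot be told apart. Non-T RNA was the reference on both arrays. It is not stated in the sources used here whether it was a single extract, so the ratios of the arrays are given side by side and not as independent measurements.

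The Polo-like kinases are serine/threonine kinases that share a kinase domain followed by polo-box domains, with which most of them dock on partner proteins. PLK1 drives entry into mitosis, centrosome maturation, spindle assembly and cytokinesis, and its transcript is made mostly in G2 and M phase. PLK4 is the master kinase of centriole duplication. PLK2 and PLK3 are known as kinases whose genes respond to growth factors and to stress, and they act mostly outside mitosis.

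The upstream sequences of the 4 genes are shown because they differ in the short promoter elements they hold. The 250 bases before the RefSeq start site were taken on the sense strand of GRCh38.p14. PLK1 lies at chr16:23678639-23678888 (+ strand), PLK2 at chr5:58460087-58460336 (- strand), PLK3 at chr1:44800127-44800376 (+ strand) and PLK4, at the first of its 3 listed start sites, at chr4:127880643-127880892 (+ strand). Capitals mark the letters of 4 elements, on either strand, where they lie wholly inside the bases shown. The CHR, the cell cycle homology element of late cell cycle genes, was searched as TTTGAA. The CRE, an element named for its response to cyclic AMP, was searched by its core TGACGT. The other two were the CCAAT box, searched by the letters of its name, and the common promoter element searched as TATAA.
PLK1: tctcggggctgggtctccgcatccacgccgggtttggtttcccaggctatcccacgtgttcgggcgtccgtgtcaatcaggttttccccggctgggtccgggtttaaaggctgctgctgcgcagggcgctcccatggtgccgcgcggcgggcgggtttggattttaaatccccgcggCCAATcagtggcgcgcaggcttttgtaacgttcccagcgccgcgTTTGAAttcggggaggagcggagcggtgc
PLK2: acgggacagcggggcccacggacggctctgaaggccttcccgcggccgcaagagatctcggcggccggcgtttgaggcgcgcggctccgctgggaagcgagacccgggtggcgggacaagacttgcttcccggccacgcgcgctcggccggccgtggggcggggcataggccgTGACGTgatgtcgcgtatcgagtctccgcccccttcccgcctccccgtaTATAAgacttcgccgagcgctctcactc
PLK3: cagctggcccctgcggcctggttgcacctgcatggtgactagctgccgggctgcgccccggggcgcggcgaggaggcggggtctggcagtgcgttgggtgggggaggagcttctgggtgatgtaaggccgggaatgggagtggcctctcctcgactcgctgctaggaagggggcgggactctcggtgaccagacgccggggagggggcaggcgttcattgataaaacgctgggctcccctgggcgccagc
PLK4: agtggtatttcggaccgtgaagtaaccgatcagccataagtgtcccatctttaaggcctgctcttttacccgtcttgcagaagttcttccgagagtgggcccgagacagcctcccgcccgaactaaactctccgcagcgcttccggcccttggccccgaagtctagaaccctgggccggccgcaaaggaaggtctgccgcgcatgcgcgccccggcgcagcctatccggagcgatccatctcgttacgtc

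The window searched was 300 bases long, from 250 before to 50 after the start site. In PLK1 the letters of a CHR lie at -29 to -24 and those of a CCAAT box at -73 to -69 relative to the start site. In PLK2 the letters TATAA lie at -28 to -24 and those of a CRE at -77 to -72. None of the 4 strings was found in the window of PLK3. At the first PLK4 start site CHR letters were found on the opposite strand, at 39 to 44 after the start, and CRE letters on the opposite strand at -5 to 1. At the third PLK4 start site CCAAT letters were found on the opposite strand at -86 to -82, and the window of its other start site held none of the strings. Such short strings are common: of 35116 windows of the same length, 15.2% held TTTGAA, 34.6% held CCAAT, 20.4% held TATAA and 7.98% held TGACGT on either strand. A match is a description of the letters and not a measured site. Of the 4 primers that the study lists for chromatin immunoprecipitation at PLK1, only the reverse primer of the first amplicon was found in the window, on the opposite strand at -182 to -163, upstream of both marked elements.

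SUB1 was lower on both arrays at each of its 4 probes. The log2 ratio, of Cy5 (SUB1 siRNA) over Cy3 (Non-T siRNA) and so below 0 where the knockdown was lower, lay between -3.75 and -1.81 for siRNA 1 and between -3.50 and -1.57 for siRNA 2. Spot intensities of genes had medians of 105 to 128 over the channels and arrays, and no spot was saturated. All 5 epithelial markers looked at (KRT8, KRT18, KRT19, EPCAM and CDH1) were well above background in Non-T cells. Of markers of other cell types, 2 of 4 of the leukocyte list, 1 of 4 of the endothelial list and 3 of 4 of the fibroblast list were as well, whereas the defining markers PTPRC, CDH5, KDR, VWF and COL1A2 were not.

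PLK1 (NM_005030) was measured by probe A_24_P313504 at chr16:23609129-23609188 and by probe A_23_P118174 at chr16:23608471-23608713, in the hg18 coordinates of the array files. The spans are separated by 415 bases. The span of the first is 60 bases and that of the second is 243 bases, while the spans of the other PLK probes are 60 or 61 bases. Gene structure in hg18 was not used here, so exons and untranslated regions are not assigned to the probes.

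At probe A_24_P313504 the spot intensity before correction was 1507 in Non-T cells and 685 in SUB1 siRNA 1 cells on one array, and 1308 in Non-T cells and 472 in SUB1 siRNA 2 cells on the other. The signal was thus lower in the SUB1 siRNA channel on both arrays, and the lower of the Non-T intensities was well above the higher of the knockdown intensities. For levels, a quantile step after background correction and loess gave both arrays the same distribution of mean log2 intensity, leaving the ratios unchanged. The level of this probe (normalized log2 intensity) was then 10.57 and 10.59 in Non-T cells, 9.15 with siRNA 1 and 8.86 with siRNA 2. How close the Non-T levels lie depends in part on that step. The log2 ratio was -1.41 with siRNA 1 (technical SD 0.075) and -1.72 with siRNA 2 (technical SD 0.070), so that 37.5% and 30.3% of the signal of Non-T cells was left. The technical SD is the median SD among repeated spots, over the 60 probes of similar intensity that were spotted 10 times, since all 6 PLK probes have 1 spot. It holds no variation between cultures or arrays. Taking the mean of both PLK1 probes for the gene gave -0.79 with siRNA 1, which is not past 2-fold, and -1.01 with siRNA 2. At this probe alone, 41 of the 25673 probes well above background had a lower ratio with siRNA 1 and 21 with siRNA 2.

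At PLK1 A_23_P118174 the intensities were 175 in Non-T cells and 150 in SUB1 siRNA 1 cells on one array, and 150 and 125 on the siRNA 2 array. They can be set against the negative control spots, whose Cy3 medians were 86.5 (siRNA 1 array) and 78.6 (siRNA 2 array) and whose Cy5 medians were 63.2 and 61.2. The log2 ratio was -0.16 with siRNA 1 (technical SD 0.097) and -0.30 with siRNA 2 (technical SD 0.091). Both probes were thus lower on both arrays, but the ratio of the second was nearer to 0 by 1.25 with siRNA 1 and by 1.43 with siRNA 2. When the median of the negative control spots was taken as background, an alternative chosen after seeing the data, the second probe had -0.19 and -0.24. With the background-subtracted signals of the scanner software it had -0.26 and -0.40, so the probes of PLK1 still differed. Over all ways of processing its ratio lay between -0.26 and -0.095 (siRNA 1) and between -0.40 and -0.16 (siRNA 2). Whether low signal, the longer span or different transcripts have a part in the difference between the PLK1 probes was not tested.

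**Figure D1:**
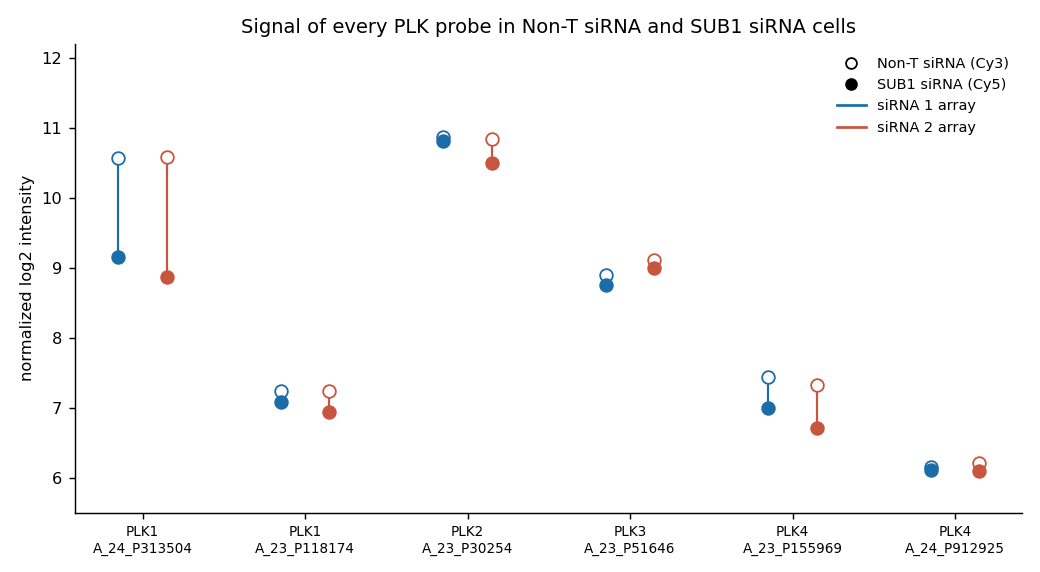
Normalized log2 intensity (vertical axis) of the 6 PLK probes in Non-T siRNA cells (Cy3, open circles) and SUB1 siRNA cells (Cy5, filled circles), with a line joining the channels of one array and colours for the siRNA 1 and siRNA 2 arrays. Levels were taken after a quantile step that gave both arrays the same distribution of mean log2 intensity. The Non-T values of PLK1 A_24_P313504 then lie at 10.57 and 10.59 and both knockdown values lie below them, at 9.15 and 8.86. Levels of different probes are not comparable.

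The difference between the siRNAs at PLK1 A_24_P313504 was -0.31 (siRNA 2 minus siRNA 1), against a technical SD of 0.10 for a difference between arrays. After the quantile step between arrays, the Cy3 level of the arrays differed by 0.022 at this probe and the Cy5 level by -0.29. Over all kept probes the same difference had an SD of 0.31, and 11.8% of them had a lower one. The order of the levels of PLK1 was therefore Non-T above both siRNAs, while the levels with siRNA 1 and siRNA 2 differed by about 1 SD of that difference over all kept probes.

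PLK4 (NM_014264) was measured by probe A_23_P155969 at chr4:129035632-129035691 in hg18. Its intensity was 197 in Non-T cells and 141 in SUB1 siRNA 1 cells on one array, and 160 and 108 on the siRNA 2 array. The normalized log2 level was 7.43 and 7.33 in Non-T cells, 7.0 with siRNA 1 and 6.72 with siRNA 2. Both knockdown levels lay below both Non-T levels. The log2 ratio was -0.43 with siRNA 1 (technical SD 0.097) and -0.61 with siRNA 2 (technical SD 0.091), a 1.35-fold and a 1.53-fold lower signal. Neither reached 2-fold, but with the processed signals of the scanner software the ratios were -0.80 and -1.13, the second past 2-fold. In the processing used here 5.77% of kept probes had a lower ratio with siRNA 1 and 3.51% with siRNA 2. The siRNAs differed by -0.18 at this probe, which is within the SD of 0.31 between the arrays.

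The other PLK4 probe, A_24_P912925 at chr4:129026461-129026520, lies 9111 bases from the first. Its intensity was 97.1 in Non-T and 75.0 in SUB1 siRNA 1 cells on one array, and 85.5 and 65.8 on the siRNA 2 array. It was not well above background in either channel of either array, so no fold is given for it. PLK4 thus rests on 1 probe here.

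PLK2 (NM_006622) was measured by probe A_23_P30254 at chr5:57785750-57785809 in hg18. Its intensity was 1841 in Non-T cells and 2165 in SUB1 siRNA 1 cells, and 1544 in Non-T cells and 1492 in SUB1 siRNA 2 cells. After loess, which removes the intensity-dependent difference between the dyes, the log2 ratio was -0.056 with siRNA 1 (technical SD 0.068) and -0.34 with siRNA 2 (technical SD 0.070). The first is within the technical SD and the second is beyond it. The direction with siRNA 1 turned when median centring replaced loess (0.19), and the value was 0.00083 with the processed signals of the scanner software, whereas the ratio with siRNA 2 was below 0 under each processing, from -0.34 to -0.092. The siRNAs differed by -0.28, and 13.5% of kept probes had a lower difference.

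PLK3 (NM_004073) was measured by probe A_23_P51646 at chr1:45044181-45044241 in hg18. Its intensity was 491 in Non-T cells and 506 in SUB1 siRNA 1 cells, and 480 in Non-T cells and 518 in SUB1 siRNA 2 cells. The log2 ratio was -0.15 with siRNA 1 (technical SD 0.077) and -0.11 with siRNA 2 (technical SD 0.070). With median centring both values were above 0, at 0.037 and 0.080, so the data give no direction for PLK3. Its siRNA difference of 0.036 was within the technical SD of 0.10.

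**Figure D2:**
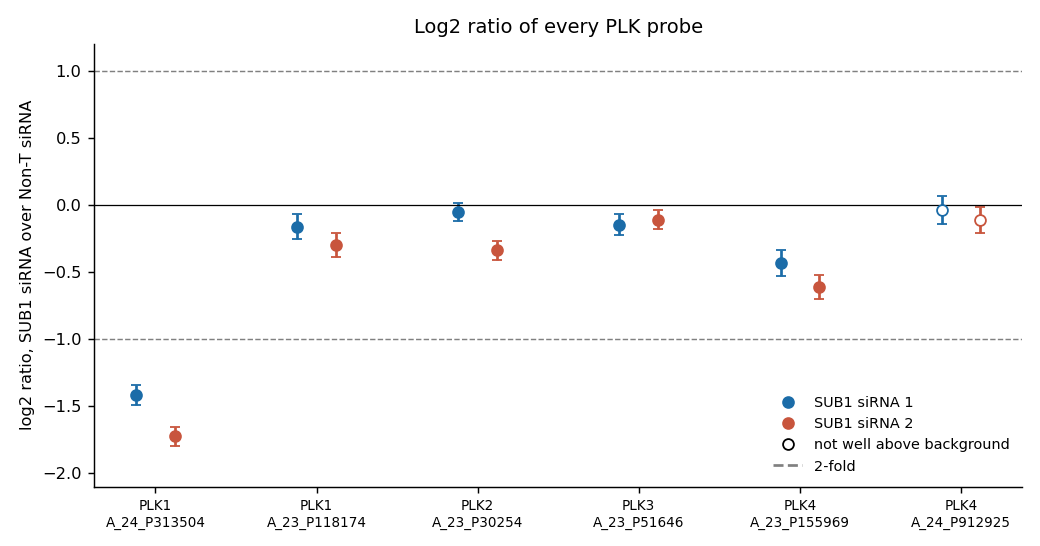
Log2 ratio, SUB1 siRNA to Non-T siRNA (vertical axis), of the 6 PLK probes with siRNA 1 and siRNA 2, with bars of 1 technical SD within an array and dashed lines at 2-fold; open points mark the probe that was not well above background. One PLK1 probe lies past 2-fold with both siRNAs (-1.41 and -1.72), and the second PLK1 probe, PLK2 and PLK3 lie between -0.34 and 0.

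Of the 5 kept PLK probes, 1 was at least 2-fold lower with siRNA 1, the same 1 with siRNA 2, and none was at least 2-fold higher. Among all kept probes, 0.557% were at least 2-fold lower with siRNA 1, 0.923% with siRNA 2 and 0.121% with both, while 0.195%, 0.526% and 0.0506% were at least 2-fold higher. All 5 kept PLK probes had ratios below 0 on both arrays, as did 31.6% of kept probes. With median centring this held for 3 of the 5, the probes of PLK1 and PLK4. That setting raised the median log2 ratio of all kept probes from 0.014 to 0.11 (siRNA 1) and from 0.015 to 0.10 (siRNA 2).

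**Figure D3:**
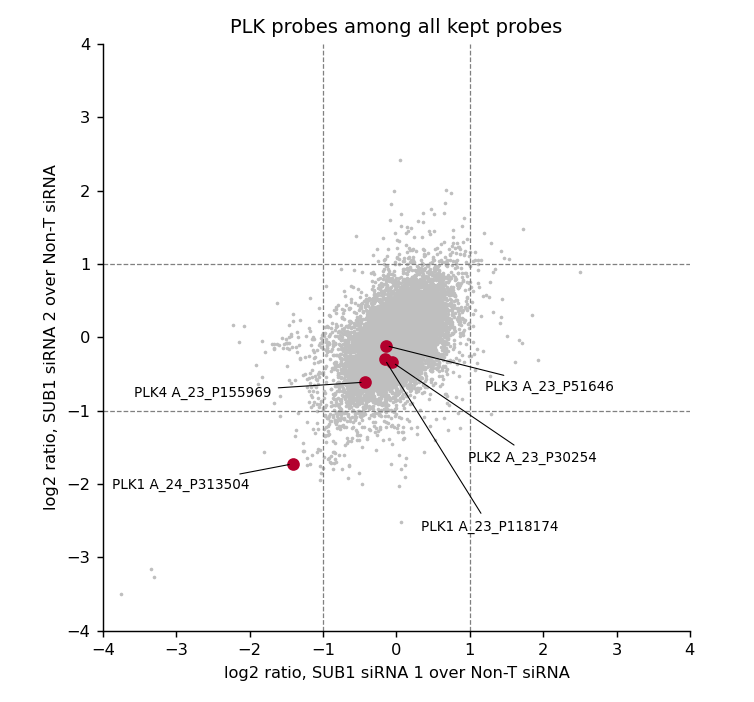
Log2 ratio with siRNA 2 (vertical axis) against that with siRNA 1 (horizontal axis) for the 25673 kept probes (grey), with the 5 kept PLK probes in red and dashed lines at 2-fold. PLK1 A_24_P313504 lies at the lower left edge (-1.41, -1.72), PLK4 at -0.43, -0.61, and the other PLK probes inside the dense part; the separate points at the far lower left are probes of SUB1, and the arrays may share their Non-T control.

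The mean ratio of both siRNAs was tested against 0 with limma over all kept probes, with Benjamini-Hochberg adjustment. For PLK1 A_24_P313504 the mean log2 ratio was -1.57 (SE 0.12) with an adjusted p of 0.103 in limma. The unadjusted p was 7.18e-05. The adjustment gave the same adjusted p to probes of smaller mean ratio, such as that of HIF1A (mean -0.63). For PLK4 A_23_P155969 the mean was -0.52 (SE 0.10) with an adjusted p of 0.121 and an unadjusted p of 0.00463. The second probe of PLK1 had -0.23 (SE 0.099, adjusted p 0.272), PLK2 had -0.20 (SE 0.11, adjusted p 0.380) and PLK3 had -0.13 (SE 0.094, adjusted p 0.477). No PLK probe passed an adjusted p of 0.05. Of all kept probes 0.0117% did so and were lower (3 probes, all of SUB1), 0 were higher, and 21.2% had an unadjusted p under 0.05. Without the filter on dim probes, 0.656% of probes passed and were lower and 0.446% passed and were higher, and the adjusted p of PLK1 A_24_P313504 was 0.0305. Over the other alternatives and this one it ranged from 0.0305 to 0.168. The test treats the siRNAs as replicates. Its SE is not the spread of these 2 arrays at a probe alone, because limma draws it toward the spread pooled over all kept probes. At PLK3 the siRNAs differed by 0.036, yet the SE was 0.094. An error common to both arrays, as from a dye or a shared control, stays in the mean and is not in the SE.

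**Figure D4:**
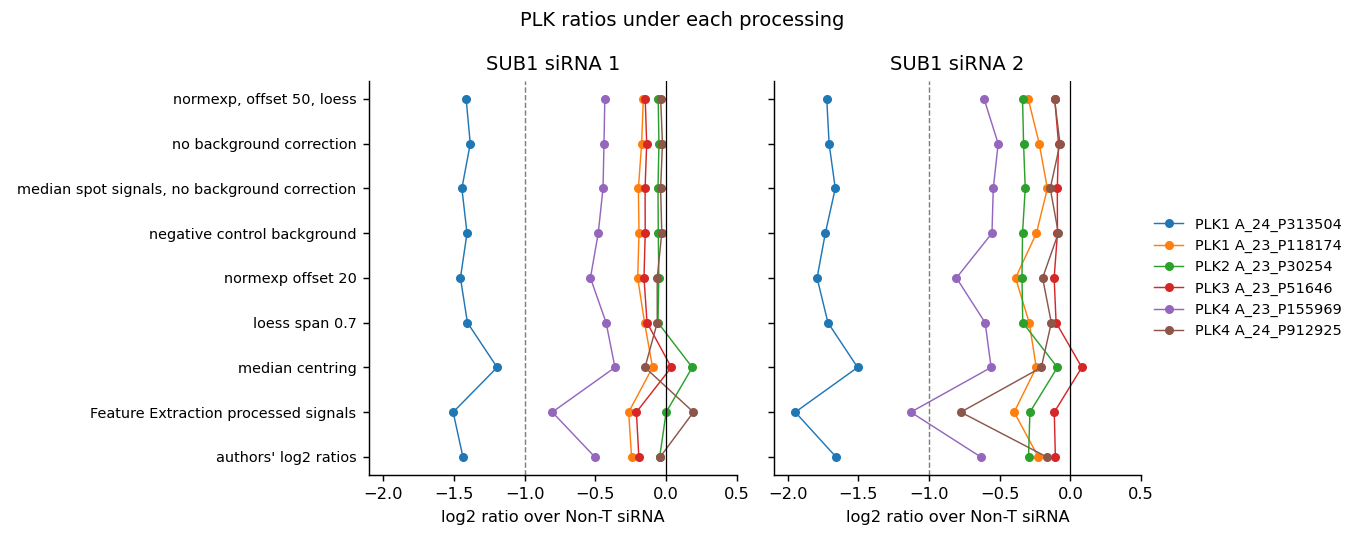
Log2 ratio over Non-T siRNA (horizontal axis) of each PLK probe with siRNA 1 (left) and siRNA 2 (right) under 9 ways of processing, with a dashed line at 2-fold lower. PLK1 A_24_P313504 is past 2-fold in all of them on both arrays, and PLK4 A_23_P155969 is past it only with Feature Extraction processed signals and siRNA 2 (-1.13). PLK3 crosses 0 with both siRNAs, whereas PLK2 crosses it with siRNA 1 and stays below it with siRNA 2.

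Genes around the kinases were read from lists of known activators, partners and regulators, each gene by its brightest kept probe. They had been chosen with results of these arrays known, so their counts are descriptions. Across all 19218 genes the median log2 ratio was 0.024 with each siRNA, 0.609% of genes were at least 2-fold lower with siRNA 1, 1.07% with siRNA 2 and 0.14% with both. Of all genes 45.9% were lower than 0 with siRNA 1, 46.4% with siRNA 2 and 30.3% with both. At least 2-fold higher were 0.208%, 0.614% and 0.052%, in the same order.

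Of the genes that act in PLK1 activation and mitotic entry, 15 of 16 were measured and their median log2 ratio was -0.72 with siRNA 1 and -1.002 with siRNA 2. With each siRNA 13 of the 15 were lower, against 45.9% and 46.4% of all genes, 4 were at least 2-fold lower with siRNA 1 and 8 with siRNA 2, and none was at least 2-fold higher. The 4 that were past 2-fold with both were CCNB2 (-1.21 and -1.74) and CCNB1 (-1.08 and -1.002), the B-type cyclins, CDK1 (-1.04 and -1.76), the kinase they activate, and FOXM1 (-1.07 and -1.24), a transcription factor of G2 genes. Members that act directly on PLK1 are given as well, although they were named after values had been seen. AURKA, the kinase that phosphorylates the activation loop of PLK1, had -0.70 and -1.02, BORA, its cofactor in that step, had -0.51 and -0.15, and PPP1R12A, a subunit of the phosphatase that opposes PLK1, had 0.27 and 0.049.

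Of the binding partners and substrates of PLK1, 23 of 25 were measured, with medians of -0.56 and -0.55. There were 19 lower with siRNA 1 and 18 with siRNA 2, against 45.9% and 46.4% of all genes. The second median was -0.89 with the processed signals of the scanner software. CEP55, a midbody protein of abscission, was the 1 member at least 2-fold lower with both siRNAs (-1.17 and -1.72), and 7 members were that low with siRNA 2. BUB1B (-0.94 and -1.34) and BUB1 (-0.97 and -1.07), checkpoint kinases at the kinetochore that bind PLK1, had the next largest absolute mean ratios. None of the 23 was at least 2-fold higher. The highest ratio with each siRNA was that of KIZ (0.54 and 0.43), named after its values were seen.

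Genes for the turnover of the kinases, the anaphase-promoting complex and other ubiquitin ligases, were measured in 14 of 14 cases and had medians of -0.11 and -0.080. Those medians turned to 0.085 and 0.10 with median centring. Largest in absolute mean ratio were UBE2C, the ubiquitin-conjugating enzyme of the complex (-0.96 and -1.43), CDC20, its mitotic activator (-0.93 and -1.21), and UBE2S, its chain-elongating enzyme (-0.78 and -0.72). Only with siRNA 2 were 2 members at least 2-fold lower.

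Of the centriole duplication genes that work with PLK4, 16 of 17 were measured. Their medians were -0.25 and -0.12, 15 were lower with siRNA 1 and 13 with siRNA 2, against 45.9% and 46.4% of all genes, and none was past 2-fold in either direction. With median centring the medians were -0.059 and -0.036. RTTN, a centriole assembly protein, had -0.71 and -0.75, TUBG1, the gamma-tubulin of the centrosome, had -0.51 and -0.65, and CEP85, a centrosomal partner of STIL, had -0.34 and -0.33. The direct partners of PLK4 at the new centriole, named after their values were seen, had varied ratios, with STIL, its substrate, at -0.43 and -0.097, SASS6, the cartwheel protein, at -0.050 and -0.095 and CEP152, its scaffold, at -0.033 and -0.13.

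Of the partners and substrates of PLK2 and PLK3, 9 of 12 were measured, with medians of -0.24 and -0.47 and no member past 2-fold. These medians depended on the processing. They were 0.048 and -0.24 with median centring, -0.050 and -0.12 without the filter on dim probes, and -0.12 and -0.30 with the mean of all kept probes of a gene. HIF1A, a hypoxia factor, had -0.62 and -0.64, CHEK2, a DNA damage checkpoint kinase, had -0.31 and -0.60, and CIB1, a calcium-binding partner, had -0.24 and -0.66.

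PLK2 and PLK3 belong to the genes induced early by growth factors or stress, and 17 of 20 other genes of that kind were measured. Their medians were 0.048 and 0.21, or 0.15 and 0.36 with median centring, whereas the ratios of PLK2 and PLK3 were below 0 with loess and not with median centring, except for PLK2 with siRNA 2. With siRNA 1 none was past 2-fold. With siRNA 2 the transcription factor genes JUNB (0.19 and 1.48) and ATF3 (0.16 and 1.09) were at least 2-fold higher and FOSL1 (-0.89 and -1.14) was at least 2-fold lower.

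Reference genes, 9 of 9 measured, had medians of -0.12 and -0.072 and none past 2-fold. Those medians were 0.22 and 0.28 with median centring. Largest in absolute mean ratio over both siRNAs were ACTB (0.75 and 0.37), which encodes beta-actin, RPLP0 (-0.44 and -0.55), a ribosomal protein, and HPRT1 (-0.38 and -0.33), a purine salvage enzyme. The ratios of PLK2, PLK3, PLK4 and the second PLK1 probe thus lay within the range that the reference genes covered with siRNA 1, from -0.62 (YWHAZ, a 14-3-3 protein gene named after its value was seen) to 0.75. With siRNA 2 the reference genes covered -0.55 to 0.37, and PLK4, at -0.61, lay just below it. These ranges hold for the processing used here. PLK4 had -0.53 and -0.81 with an offset of 20, and -0.80 and -1.13 with the processed signals of the scanner software. The range of the reference genes was not taken for those settings.

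**Figure D5:**
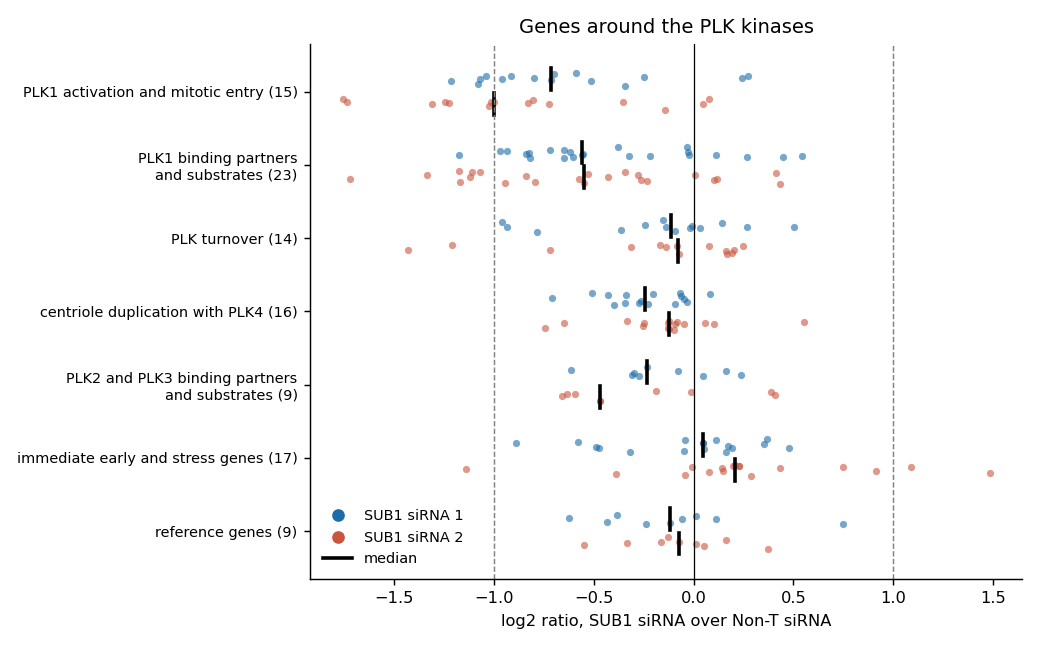
Log2 ratio, SUB1 siRNA to Non-T siRNA (horizontal axis), of each measured gene of the 7 lists, with siRNA 1 and siRNA 2 in colour, black bars for the median of a list, dashed lines at 2-fold and the number of measured genes in parentheses. The mitotic entry list has the lowest medians (-0.72 and -1.002), and the medians of the reference, turnover and immediate early genes lie between -0.12 and 0.21.

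Genes with the pattern most like that of each kinase were those with the smallest Euclidean distance between the pairs of log2 ratios over the 2 arrays. The search covered only the 13129 of 19218 genes that took their name from the RefSeq table. Each gene stood by its brightest kept probe, which for PLK1 was A_24_P313504 (-1.41 and -1.72). The other PLK1 probe (-0.16 and -0.30) was not used. Nearest to PLK1 were HMMR, a spindle-binding protein (distance 0.037), MAD2L1, a spindle checkpoint protein (0.060), and PBK, a mitotic kinase (0.069). These distances are below the technical SD of a ratio at that PLK1 probe (0.075 and 0.070), so their order is not resolved. No other gene among those searched lay within 0.1 of PLK1. Nearest to PLK4 were CAV1, the caveolin-1 gene (0.013), DIAPH1, a formin (0.016), and DNAJC10, a chaperone of the endoplasmic reticulum (0.017), among 89 genes within 0.1. For PLK2 the nearest were PFAS, TRIM2 and PRDX3, among 344 genes within 0.1, and for PLK3 they were CCDC77, WNT4 and MGST1, among 810. Pairs of ratios near 0 had many neighbours, and PLK1, by its brightest probe, had the fewest of the 4 kinases.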

How the data were processed

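Gene expression was measured on 2 dual-colour arrays, grouped by their labels as SUB1 siRNA 1 and SUB1 siRNA 2. The authors scanned the arrays and deposited the Feature Extraction 9.5.1.1 output, which holds the intensity and local background of every spot in each channel, not normalized. They also deposited a table of log2 ratios per probe after loess, used here as an alternative. The log ratios and p-values of the software were not used.

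Here the background was corrected by normexp (mean signal, median local background, offset 50) and each array was normalized by loess with a span of 0.3, using limma 3.58.1 in R 4.3.3. Spots with outlier flags were dropped and repeated spots averaged. Before that averaging, and for the normalized levels only, the mean log2 intensities were quantile-normalized between the arrays (Aquantile in limma), which leaves the ratios unchanged. Kept were the 25673 of 41000 probes whose spots, in a share of 0.5 or more on each of both arrays, passed the test of the software for signal well above background in Cy3 or Cy5. The brightest probe stood for a gene (19218 genes, of which 13129 took their name from the RefSeq table of GRCh38.p14). A ratio was called changed at 2-fold on an array. The mean of both arrays was tested against 0 with limma (intercept, eBayes, Benjamini-Hochberg over all kept probes), which leaves out the spread of the control. The number of arrays limits the precision.

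The members and gene lists were chosen with earlier results of these data known. By rule, the text names the PLK probes, SUB1, the genes of a list past 2-fold with both siRNAs, its 3 members of largest absolute mean ratio, and the 3 nearest genes per kinase. The fit was tested on simulated data, and the processing on real spots of these arrays whose Cy5 signal was raised by a known ratio. The outcomes of these tests are not given here. Alternatives covered background, signal summary, normalization, offset, outlier spots, the filter on dim probes, the variance model and the choice of probe. Promoters came from RefSeq (GRCh38.p14) and were not joined to the hg18 probe coordinates.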

Additional observations from a re-analysis of the deposited data

How the results depend on the processing

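The PLK ratios, counts and list medians were set against each alternative in 393 comparisons, and 347 of them were labelled as unchanged. For ratios and their means this label meant the same call and direction. For counts it meant a value within a set factor, and for list medians a shift smaller than the technical SD. A median so labelled could still cross 2-fold, as for mitotic entry with siRNA 2 (-0.998 without background correction). Centring each array on its median in place of loess gave PLK2 0.19 with siRNA 1 and a mean of 0.046 (adjusted p 0.823 in limma), and PLK3 0.037 and 0.080 with a mean of 0.059 (adjusted p 0.721). It gave 71 probes at least 2-fold lower and 169 higher with siRNA 1, and 115 lower and 310 higher with siRNA 2, in place of 143 and 50, and of 237 and 135. List medians were then -0.54 and -0.77 (mitotic entry), -0.39 and -0.42 (PLK1 partners), 0.085 and 0.10 (turnover), -0.059 and -0.036 (centriole), 0.048 and -0.24 (PLK2 and PLK3 partners), 0.15 and 0.36 (immediate early) and 0.22 and 0.28 (reference). Feature Extraction's processed signals gave PLK2 0.00083 with siRNA 1, PLK4 A_23_P155969 -1.13 with siRNA 2 and, for the PLK4 probe not well above background, values of opposite sign (0.19 with siRNA 1 and -0.78 with siRNA 2), which are no measure of PLK4. They gave 386 probes lower and 1020 higher with siRNA 1, 642 lower and 1307 higher with siRNA 2, and medians of -0.98 (mitotic entry, siRNA 1), -0.74 and -0.89 (PLK1 partners), 0.30 (immediate early, siRNA 2) and -0.22 (reference, siRNA 1). Under an offset of 20, 93 probes were higher with siRNA 1 and the PLK1 partners had -0.62 with siRNA 2. The authors' ratios gave -0.38 for the PLK2 and PLK3 partners with siRNA 2. Without the filter on dim probes the adjusted p of PLK1 A_24_P313504 (mean -1.57) was 0.0305, the mitotic entry median was -0.92 with siRNA 2 and the PLK2 and PLK3 partners had -0.050 and -0.12. With the mean of all kept probes of a gene PLK1 had -0.79 with siRNA 1, mitotic entry -0.83 with siRNA 2 and the PLK2 and PLK3 partners -0.12 and -0.30. The cause was not tested in any of these cases. PLK1 A_24_P313504 on its own stayed past 2-fold with both siRNAs under every way of processing, with a mean from -1.73 to -1.35. No further pairing was possible because knockdown and control are already paired within an array, as in the ratios tested here, and no other condition was measured. With either array left out no spread remains to test against, and the values of the remaining array are those given for its siRNA.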
